A study of Mus musculus with 6 samples.

Results

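The extracellular signal-regulated kinase (ERK) cascade switches on its own brakes, and 10 genes that report on it or restrain it were followed in mouse keratinocytes lacking C/EBPβ. They were taken by symbol: the MAP kinase phosphatases Dusp1, Dusp4, Dusp5 and Dusp6, the Sprouty genes Spry1, Spry2 and Spry4, and the zinc finger transcription factor genes Egr1, Egr2 and Egr3. All 10 were found among the 55416 genes of the table, and all 10 were among the 17659 genes that held enough counts to be tested.

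RNA came from primary epidermal keratinocytes of C57BL/6J:129 hybrid pups aged 1 to 2 days, either wild type or knockout for Cebpb, which encodes the leucine zipper transcription factor C/EBPβ. Both genotypes were grown in 0.05 mM calcium with human EGF, a ligand that activates ERK through its receptor, at 5 ng/mL after a first day at 10 ng/mL. Both were exposed 5 days after plating to a 312 nm UVB lamp at a dose of 10 mJ/cm2 and taken 8 h later, so every value describes irradiated cells and none describes the response to UVB itself. There were 3 wild type libraries (numbered 1 to 3) and 3 knockout libraries (numbered 4 to 6), and the labels do not say whether they came from separate animals or pools, so p-values measure only the spread between these libraries.

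In keratinocytes, ERK is driven mainly by the EGF receptor through RAS, RAF and MEK, and supports proliferation, migration and survival. Active ERK induces the Egr genes within minutes through serum response factor and its ETS partners such as ELK1, and it induces dual-specificity phosphatases, which strip the phosphates from MAP kinases. Sprouty proteins act earlier, between the receptor and RAF, so levels of these transcripts are widely read as a record of recent pathway output.

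The study asks what loss of C/EBPβ does to irradiated keratinocytes. The 3 Egr genes, Dusp1 and Dusp5 fell in knockout cells, Dusp4 and Spry4 rose, and Dusp6, Spry1 and Spry2 were not called. Thus 7 of the 10 were called by edgeR's quasi-likelihood test at an adjusted p under 0.05, 5 lower and 2 higher. Of all genes tested, 48.6% were called, 23.7% lower and 24.8% higher. Their median log2 fold change, knockout over wild type, was -0.41 against 0.01 over all genes tested. Library totals in place of trimmed mean of M values (TMM) scaling moved the median of all genes to 0.21 and the share of higher calls from 51.1% to 72.5%, and then 4 of the 10 were called higher and 5 lower. The groups of libraries did not overlap for 7 of the 10, 5 lower and 2 higher in knockout cells, against 56.4% of all genes tested (27.6% lower and 28.7% higher).

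Promoter stretches are shown for 4 of the genes because serum response factor and cAMP response elements are the textbook entry points of MAP kinase signals to these genes. RefSeq windows on GRCm38.p6 were searched for 6 of the 10 (Dusp1, Dusp5, Dusp6, Spry1, Spry2 and Egr2). The stretch from 250 to 51 bases before each annotated start was searched on both strands. No window was at hand for Dusp4 and Egr3. Egr1 and Spry4 were left out of the search, so nothing is said here of motifs in their promoters. Capitals mark every match to any of 6 motifs: the CArG box bound by serum response factor, TGACGTCA (a cAMP response element), TGANTCA (AP-1), TTGCNNAA (C/EBP), GCGNGGGCG (EGR) and CCGGAAGT (ETS). Sequences read 5′ to 3′ on the strand of the gene. The counts were made on a later build, so these positions belong to the sequences alone.
Dusp5, chr19:53528895-53529094, plus strand: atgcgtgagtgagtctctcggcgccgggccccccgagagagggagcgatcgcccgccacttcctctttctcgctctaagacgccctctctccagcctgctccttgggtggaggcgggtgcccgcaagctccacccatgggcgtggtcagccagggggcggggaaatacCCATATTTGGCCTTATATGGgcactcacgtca
Egr2, chr10:67537619-67537818, plus strand: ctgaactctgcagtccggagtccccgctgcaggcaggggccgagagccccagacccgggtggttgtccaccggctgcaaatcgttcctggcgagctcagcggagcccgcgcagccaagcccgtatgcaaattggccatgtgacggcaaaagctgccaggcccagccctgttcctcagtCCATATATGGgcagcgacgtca
Dusp1, chr17:26508523-26508722, minus strand: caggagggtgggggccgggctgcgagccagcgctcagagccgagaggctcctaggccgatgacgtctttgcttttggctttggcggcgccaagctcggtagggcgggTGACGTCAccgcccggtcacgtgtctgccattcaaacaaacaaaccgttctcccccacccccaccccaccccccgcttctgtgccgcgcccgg
Dusp6, chr10:99262981-99263180, plus strand: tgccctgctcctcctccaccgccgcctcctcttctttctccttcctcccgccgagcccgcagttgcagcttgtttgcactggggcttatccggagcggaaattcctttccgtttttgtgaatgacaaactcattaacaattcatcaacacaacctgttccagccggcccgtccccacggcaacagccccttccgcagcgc

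Dusp5 held 2 CArG boxes side by side, CCATATTTGG and CCTTATATGG, with no overlap between them, and Egr2 held CCATATATGG. A CArG box occurred in 1.16% of the 32851 windows of this length that were searched. The Dusp1 stretch held TGACGTCA, found in 0.828% of windows. The other motifs occurred in 5.57% (TGANTCA), 8.11% (TTGCNNAA), 3.04% (GCGNGGGCG) and 1.40% (CCGGAAGT) of windows. None of the 6 motifs matched the stretches of Dusp6, Spry1 and Spry2, which says only that those letters were not in these 200 bases. Egr2 has 5 annotated starts in the table, and the windows of 4 of them held a CArG box, those of 3 of them the same one. By GENCODE M21 the Dusp5 stretch lies under an exon of AC137853.2, a transcript of the opposite strand, and the Egr2 and Dusp1 stretches lie inside an intron of a longer transcript of the same gene. Among tested genes with a CArG box in such a window, 45 of 131 were called higher and 45 lower (34.4% each), against 28.4% higher and 26.6% lower of 11404 tested genes with any window.

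Egr1, Egr2 and Egr3 encode related zinc finger transcription factors that bind GC-rich sites and pass short bursts of ERK activity on to later genes. Egr3 (ENSMUSG00000033730) stood at 48.4, 43.4 and 41.9 CPM (counts scaled to the depth of each library by TMM) in wild type libraries, against 9.90, 11.8 and 11.0 CPM in knockout libraries. Every wild type library lay above every knockout library by a wide margin. Egr3 fell by 2.03 ± 0.09 log2 units (SE, edgeR adjusted p = 4.66e-11), and 4.41% of tested genes had a log2 fold change as large or larger in either direction.

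Egr1 (ENSMUSG00000038418), the founding member of the family, stood at 32.9, 23.5 and 23.3 CPM in wild type and 8.89, 12.5 and 12.0 CPM in knockout libraries. Wild type replicate 1 was high and knockout replicate 4 low within their groups, which still did not overlap. Egr1 fell by 1.26 ± 0.15 log2 units (SE, edgeR adjusted p = 9.39e-06). Egr2 (ENSMUSG00000037868), known for its part in myelination and immune tolerance, stood at 9.98, 9.13 and 7.24 CPM in wild type and 3.40, 3.65 and 3.25 CPM in knockout libraries. It fell by 1.35 ± 0.14 log2 units (SE, edgeR adjusted p = 7.93e-07), again with no overlap. All 3 were called lower in each of the 12 alternatives, library totals included, with log2 fold changes of -2.09 to -1.83 for Egr3, -1.35 to -1.06 for Egr1 and -1.48 to -1.16 for Egr2.

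The 4 phosphatase genes went in different directions. Dusp5 (ENSMUSG00000034765) encodes a nuclear phosphatase that acts on ERK alone among the MAP kinases. It stood at 206, 140 and 145 CPM in wild type and 29.2, 38.1 and 38.2 CPM in knockout libraries. Its lowest wild type library held several times the CPM of its highest knockout library. Dusp5 fell by 2.22 ± 0.17 log2 units (SE, edgeR adjusted p = 1.10e-05), the largest change among the 10 genes. The transcript AC137853.2 of the opposite strand, which shares exon sequence with Dusp5, was also lower (2.96 ± 0.377 against 1.07 ± 0.203 CPM, SD, n = 3 each). Without a stated strand setting, reads of the pair cannot be told apart.

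Dusp1 (ENSMUSG00000024190) encodes a nuclear phosphatase best known for switching off the stress kinases p38 and JNK, besides ERK. It stood at 31.4, 19.6 and 23.7 CPM in wild type and 12.8, 16.0 and 14.2 CPM in knockout libraries. The gap between the lowest wild type and the highest knockout library was small, but there was no overlap. Dusp1 fell by 0.80 ± 0.15 log2 units (SE, edgeR adjusted p = 4.28e-04). Ergic1, whose exons overlap those of Dusp1 on the opposite strand, was higher in knockout cells (0.47 ± 0.09 log2 units, SE).

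Dusp4 (ENSMUSG00000031530), a further nuclear phosphatase of ERK and JNK, went the other way. It stood at 72.3, 52.6 and 52.5 CPM in wild type and 84.1, 92.3 and 105 CPM in knockout libraries. All knockout libraries lay above wild type replicate 1, the highest of its group. Dusp4 rose by 0.66 ± 0.12 log2 units (SE, edgeR adjusted p = 0.00116). Dusp1, Dusp4 and Dusp5 kept their direction and their call in each of the 12 alternatives.

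Dusp6 (ENSMUSG00000019960) encodes the cytoplasmic phosphatase that holds and inactivates ERK, and is the textbook transcript for reading ERK output. It stood at 25.0, 15.4 and 17.0 CPM in wild type and 21.5, 24.2 and 28.1 CPM in knockout libraries. The groups overlapped through wild type replicate 1, which was above knockout replicates 4 and 5. Its log2 fold change of 0.36 ± 0.17 was not called (SE, edgeR adjusted p = 0.101), with a 95% interval of -0.01 to 0.73. It was called higher once wild type replicate 1 was left out (0.60, edgeR adjusted p = 2.68e-04), and also with library totals (0.56), with no filter on low counts (0.36) and with limma voom (0.38).

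Sprouty proteins bind signalling adaptors at the membrane and dampen the path from growth factor receptors to RAS and RAF. Spry2 (ENSMUSG00000022114) stood at 12.3, 9.20 and 9.88 CPM in wild type and 11.5, 12.4 and 13.8 CPM in knockout libraries. As with Dusp6, wild type replicate 1 reached into the knockout range. Its log2 fold change of 0.27 ± 0.12 was not called (SE, edgeR adjusted p = 0.0857, 95% interval 0.01 to 0.53). Leaving out wild type replicate 1 made it a higher call (0.40, edgeR adjusted p = 0.0115), as did library totals (0.47).

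Spry1 (ENSMUSG00000037211) had the smallest spread between libraries of the 10 genes. It stood at 5.81, 5.57 and 5.73 CPM in wild type and 5.46, 5.69 and 5.65 CPM in knockout libraries, and the 2 ranges overlapped. Its coefficient of variation was 2.17% in each genotype, while those of the other genes were 5.97% to 26.9%. Spry1 held 486 to 648 counts in a library, where counting noise alone is usually larger than that. With 3 libraries per group its low spread is therefore only a description. The log2 fold change was -0.02 ± 0.12 (SE, edgeR adjusted p = 0.885), with a 95% interval of -0.28 to 0.23. It was 0.17 with library totals, also not called.

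Spry4 (ENSMUSG00000024427) was scarce, with 51, 42 and 34 counts in wild type and 76, 52 and 69 counts in knockout libraries. These correspond to 0.457, 0.361 and 0.341 CPM and to 0.798, 0.525 and 0.803 CPM. The groups did not overlap in CPM, although wild type replicate 1 and knockout replicate 5 held nearly the same number of counts at different depths. Spry4 rose by 0.87 ± 0.32 log2 units (SE, edgeR adjusted p = 0.0334). The call was lost with DESeq2's test (0.86, adjusted p = 0.062) and without wild type replicate 2 (0.82) or 3 (0.78) or knockout replicate 4 (0.77) or 6 (0.77), with edgeR adjusted p from 0.0812 to 0.11.

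**Figure D1:**
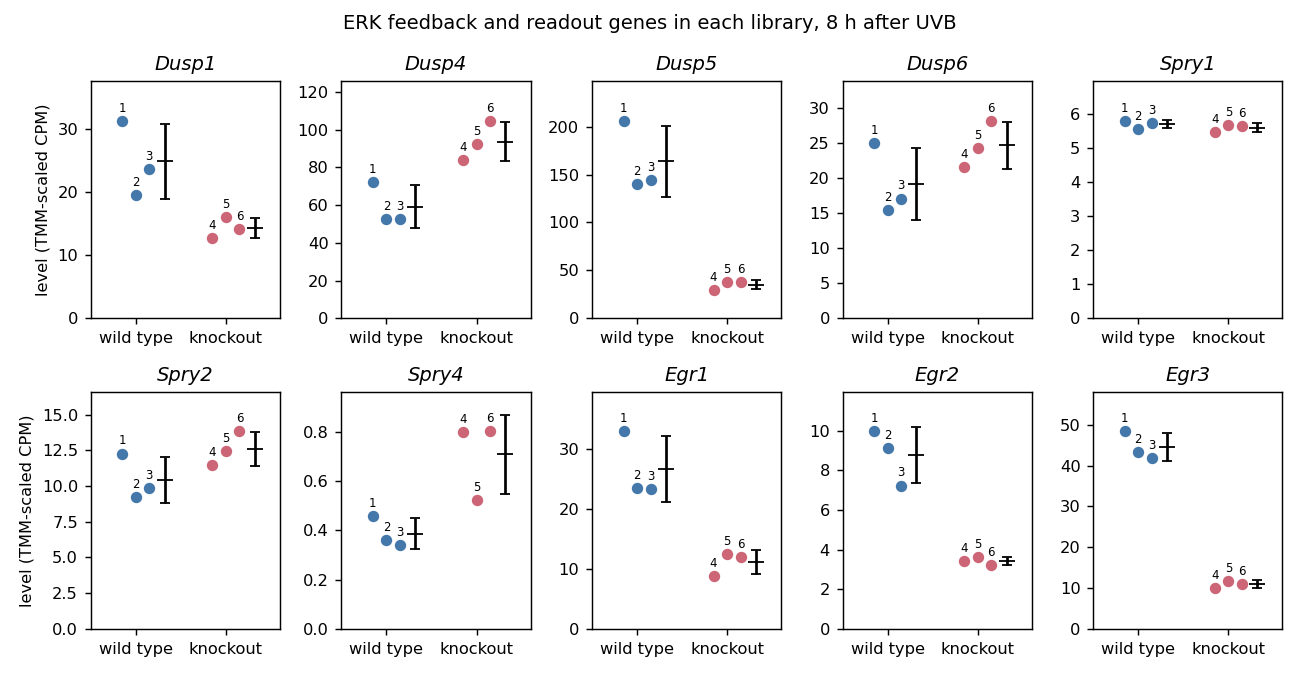
Level of each gene in every library, in TMM-scaled CPM on axes that start at 0. Blue points are wild type libraries 1 to 3 and red points knockout libraries 4 to 6, with the mean and SD of each group (n = 3) as a black bar beside them. Egr1, Egr2, Egr3, Dusp1 and Dusp5 lie lower in all knockout libraries and Dusp4 and Spry4 higher, while the ranges of Dusp6, Spry1 and Spry2 overlap.

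**Figure D2:**
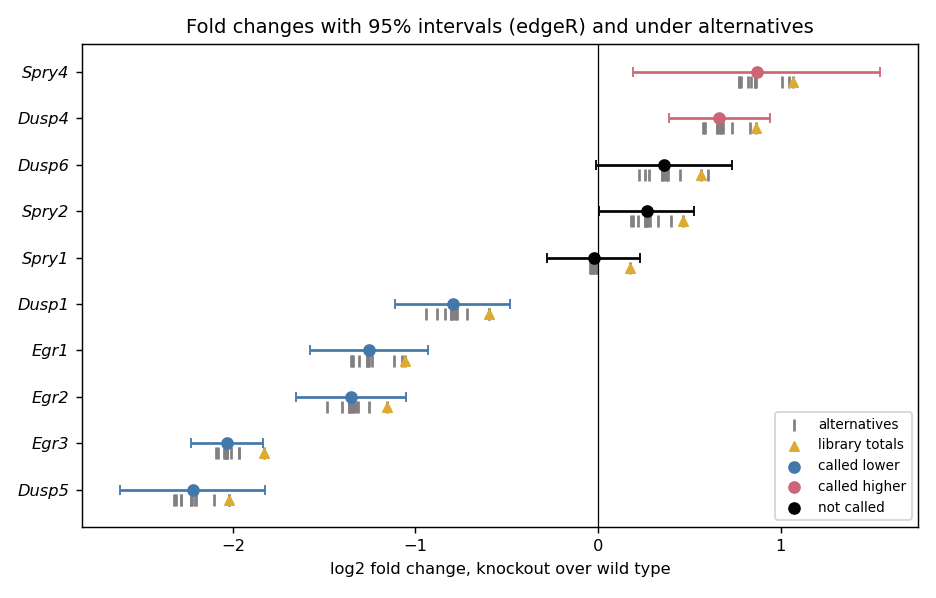
Log2 fold change of each gene, knockout over wild type, with its 95% interval from edgeR (blue, called lower; red, called higher; black, not called). Grey ticks below each point are the values under 12 alternatives and the yellow triangle is the one with library totals. Values run from -2.22 for Dusp5 to 0.87 for Spry4, and the sign of Spry1 changes with library totals.

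Levels of different genes were compared per kilobase of exon, by GENCODE M21 lengths. In wild type cells the order was Dusp5 (66.2 ± 15.0 CPM per kb, SD), Dusp4 (21.6 ± 4.15), Egr3 (10.1 ± 0.772), Dusp1 (7.52 ± 1.81), Dusp6 (6.11 ± 1.64), Egr1 (5.93 ± 1.22), Spry2 (5.01 ± 0.773), Egr2 (2.58 ± 0.412), Spry1 (1.96 ± 0.0426) and Spry4 (0.0813 ± 0.0131). The ranges of the neighbours Dusp1 and Dusp6, Dusp6 and Egr1, and Egr1 and Spry2 overlapped, and those of the other neighbours did not. In knockout cells Dusp4 came first (34.2 ± 3.81 CPM per kb), followed by Dusp5 (14.2 ± 2.09), Dusp6 (7.86 ± 1.07), Spry2 (6.03 ± 0.570), Dusp1 (4.33 ± 0.488), Egr1 (2.48 ± 0.438) and Egr3 (2.48 ± 0.221). Spry1 (1.93 ± 0.0419), Egr2 (1.01 ± 0.0604) and Spry4 (0.149 ± 0.0335) closed the order. Here only the ranges of Egr1 and Egr3 overlapped among neighbours. Dusp5 and Dusp4 thus exchanged the first place between the genotypes, and Egr3 moved from above Dusp1, Dusp6 and Spry2 to below them.

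Ratios between members within a library do not depend on scaling, so 12 of them were compared, with no length correction and only between genotypes. The 12 were picked by hand from the 45 pairs of members. They restate the fold changes above for 2 genes at a time, and no share over other gene pairs was taken. The log2 ratio of Dusp5 to Dusp4 was 1.51, 1.41 and 1.46 in wild type against -1.53, -1.28 and -1.46 in knockout libraries. Its difference of -2.88 was far larger than the SDs of 0.05 and 0.13. The log2 ratio of Dusp6 to Egr1 was -0.40, -0.61 and -0.45 in wild type and 1.27, 0.95 and 1.23 in knockout libraries, a difference of 1.64. The ratio of Spry2 to Egr1 shifted likewise, by 1.53, and that of Egr3 to Egr1 by -0.78.

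In contrast, the log2 ratio of Egr2 to Egr1 was -1.59 ± 0.20 in wild type and -1.68 ± 0.26 in knockout libraries (SD, n = 3 each), with overlapping ranges (exact permutation p = 0.5, two-sided). The ratio of Spry1 to Spry2 overlapped too (exact permutation p = 0.2). The groups did not overlap for the other 10 ratios, each at an exact two-sided permutation p = 0.1, the smallest that 3 against 3 libraries can give, or 0.12 adjusted over the 12 ratios by Benjamini-Hochberg. The ratio of Dusp4 to Dusp6 was among these but moved little, from 1.64 ± 0.12 to 1.93 ± 0.04 (SD). Where 2 genes changed by unlike amounts their ratio had to move, so the count of 10 adds nothing to the fold changes.

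**Figure D3:**
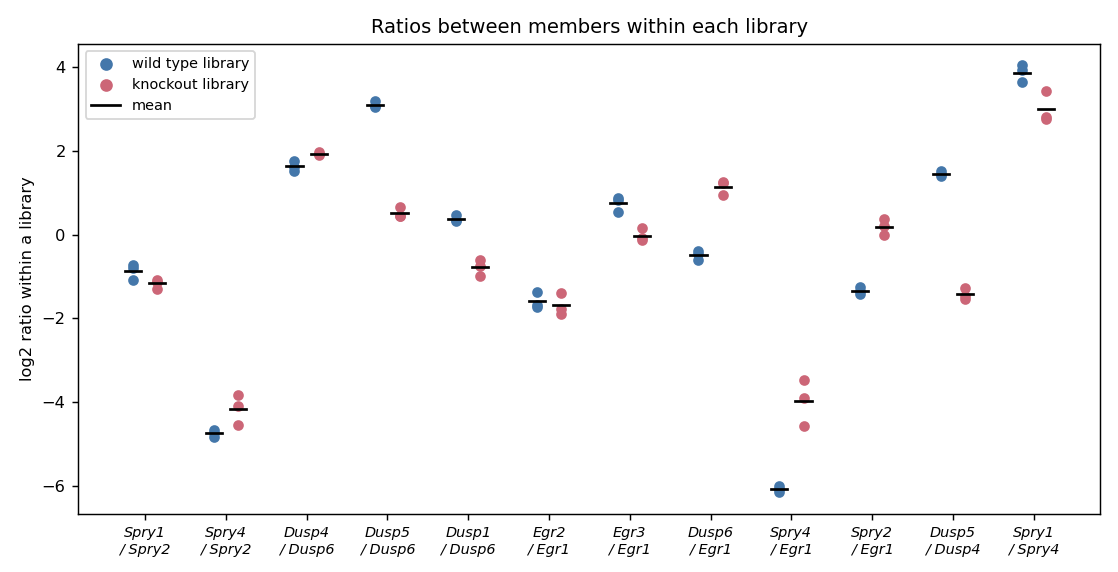
Log2 ratio of CPM between pairs of the genes within each library, for 12 pairs, with the mean of each group as a black line. Blue points are wild type and red points knockout libraries. Ratios are not corrected for length, so heights are comparable only between genotypes. The pairs Spry1 to Spry2 and Egr2 to Egr1 overlap, and Dusp5 to Dusp4 moves from 1.46 to -1.42.

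Libraries of 1 genotype also differed from each other in a shared way. Wild type replicate 1 was the highest of its group for all 10 genes, while it was the highest for 36.0% of all genes tested. Knockout replicate 4 was the lowest of its group for 8 of the 10, against 33.1% of all genes tested; the exceptions were Spry4 and Egr2. Deviations of log2 CPM from the mean of the genotype were positively correlated in 43 of the 45 pairs of genes, with a median r of 0.78 over 6 libraries. The highest were between Dusp6 and Spry2 (r = 0.997), Dusp5 and Egr1 (0.985) and Dusp4 and Dusp6 (0.982). The lowest were between Spry4 and Egr3 (-0.18) and Spry4 and Spry1 (-0.13), and Spry4 has the fewest counts. Pairs share their libraries and their depth, and these correlations rest on 6 points, so they are given as a description.

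**Figure D4:**
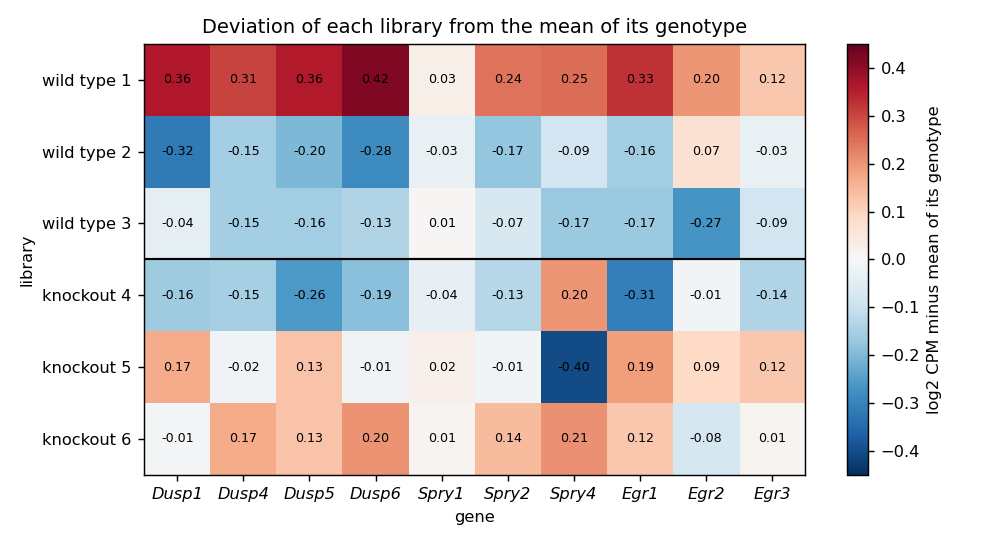
Difference of log2 CPM in each library (rows) from the mean of its genotype for each gene (columns), in log2 units, red above and blue below the mean. Wild type replicate 1 is above its mean for all 10 genes, from 0.03 for Spry1 to 0.42 for Dusp6, and knockout replicate 4 is below its mean for 9 genes.

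For each of the 10 genes, the 3 genes most like it were taken by Pearson's r of log2 CPM over the 6 libraries, among the 11201 or 11202 genes whose mean reached 2 CPM. For Dusp6 the first was Spry2 (r = 0.996), and for Spry2 it was Dusp6, out of all genes compared. Zfp871 and Kctd10 followed for Dusp6, and Dkkl1 and Dsel for Spry2. Dusp4 was most like Zfp281, Tmem151a and Smad7, which encodes an inhibitor of TGF-beta signalling (r of 0.994 to 0.995), and Dusp1 most like Polr2a, Eps8l1 and Mr1. Egr1 was most like Dpm2, AI661453 and Rab5c, Egr2 most like Adamtsl5, Slc15a4 and Nxf1, and Spry1 most like Gm37607, Ftl1-ps1 and 2310022A10Rik. Dusp5 was most like Adm, Ifrd1 and Rplp2, Egr3 most like Klk9, Acp7 and Hspb1, and Spry4 most like Slc22a5, Zdhhc20 and 2010315B03Rik. For genes with a large genotype difference such values are common, since 454 genes passed an r of 0.99 with Egr3 and 249 with Dusp5, but 1 each did with Dusp6 and Spry2.

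The counts of calls in each list below stand beside 24.8% of all genes tested called higher and 23.7% called lower. Genes of the cascade that leads from receptor adaptors to ERK and its kinases leaned lower with TMM scaling. Of 25 tested, 4 were called higher, 11 lower and 10 not, with a median log2 fold change of -0.16, but library totals gave 8 higher and 3 lower. Map2k1, which encodes the ERK kinase MEK1, fell from 92.5 ± 3.08 to 54.7 ± 1.77 CPM (SD, n = 3 each), and Rras2, a RAS-related GTPase, fell by 0.94 log2 units. Ksr1, a scaffold that brings RAF, MEK and ERK together, rose by 1.94, from 0.866 ± 0.0328 to 3.32 ± 0.262 CPM. Mapk3, which encodes ERK1, was called lower at -0.19, a value that turned to 0.01 with library totals. Leaving out wild type replicate 1 (-0.12, edgeR adjusted p = 0.111), knockout replicate 4 (-0.18, 0.0734) or knockout replicate 5 (-0.16, 0.104) also ended that call. Among EGFR family receptors and ligands, 1 of 10 was higher, 4 lower and 5 not called (median -0.23). Egfr fell by 0.81, from 29.6 ± 1.94 to 16.8 ± 0.418 CPM, and the ligand genes Epgn and Ereg fell by 4.29 and 2.07.

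Other brakes on receptor, RAS and RAF signalling leaned higher, with 9 of 20 tested called higher, 3 lower and 8 not (median 0.33). Library totals left 1 of them lower. Il17rd, which encodes the membrane inhibitor Sef, rose by 2.32 ± 0.22 log2 units (SE), from 1.29 ± 0.456 to 6.45 ± 1.12 CPM (SD). Lrig3, of a family that restrains receptor tyrosine kinases, rose by 0.95 log2 units. Errfi1, which encodes the EGFR inhibitor MIG6, fell from 325 ± 41.0 to 170 ± 9.30 CPM (SD). Of the Sprouty relatives, Spred3 rose by 0.91 and Spred2 by 0.72. Spred1 fell by 0.33, a call lost with library totals.

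Of the other dual-specificity phosphatases, 3 of 10 tested were called higher, 4 lower and 3 not (median -0.17). Dusp14 fell from 180 ± 23.7 to 49.7 ± 3.75 CPM. The ERK phosphatase gene Dusp9 fell by 0.92, and Dusp16 and Dusp10, which act on JNK and p38, fell by 0.82 and 0.42. The 3 called higher were Dusp19 (0.73), Dusp3 (0.37) and Dusp8 (0.34). Dusp7, the closest relative of Dusp6, was not called (-0.11, edgeR adjusted p = 0.217), and its value was 0.09 with library totals. Dusp2 was scarce and not called (0.735 ± 0.287 and 0.647 ± 0.219 CPM). The p38 and JNK kinases and their activators had 6 of 18 higher, 6 lower and 6 not called (median -0.03). Map2k3, an activator of p38, fell by 0.63, Mapk13 (p38 delta) fell by 0.60, and Mapk9 (JNK2) rose by 0.73.

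Other transcripts used to read ERK output went both ways: 5 of 20 were called higher, 8 lower and 7 neither (median -0.06). The share called higher was near the 24.8% of all genes tested. The ETS factor genes Etv4 and Etv5 rose by 0.87 and 1.06, from 14.0 ± 1.11 to 25.6 ± 2.24 CPM and from 2.33 ± 0.256 to 4.84 ± 0.279 CPM. The cyclin gene Ccnd1 rose from 278 ± 23.6 to 791 ± 47.6 CPM, and the cytokine gene Lif by 2.55. Myc fell by 1.75. Phlda1 (-0.08) and Epha2 (0.01) were not called, and both changed sign when a library was left out.

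Other immediate early genes were split as well, and 10 of 24 were called higher, 8 lower and 6 neither (median -0.05). Without wild type replicate 3 or knockout replicate 5 there were 6 higher. Fos, a classical partner of Egr1 in the early ERK response, fell from 40.3 ± 9.27 to 22.9 ± 4.73 CPM (-0.82 ± 0.18 log2 units, SE). The 3 called genes of smallest p in this list were all higher. The stress gene Gadd45a rose by 0.98, the cytokine gene Gdf15 by 2.19 and the antiproliferative gene Btg2 by 0.76. They do not stand for the list, whose log2 fold changes ran from -1.65 to 2.19. In the list of EGR partners and serum response factors, 1 of 8 was higher, 3 lower and 4 not called. Nab2, a corepressor that EGR proteins induce and bind, fell from 37.5 ± 0.944 to 17.4 ± 1.11 CPM, and its relative Nab1 fell by 0.20. The call of Nab1 was lost with library totals. Leaving out wild type replicate 1 (-0.18, edgeR adjusted p = 0.0712), wild type replicate 3 (-0.21, 0.0708) or knockout replicate 5 (-0.14, 0.168) also ended it. Srf, the gene of serum response factor, fell by 0.54 and the ETS repressor gene Elk3 rose by 1.41. The relative Egr4 was not tested, at 0.0787 ± 0.0458 and 0.0573 ± 0.0903 CPM.

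**Figure D5:**
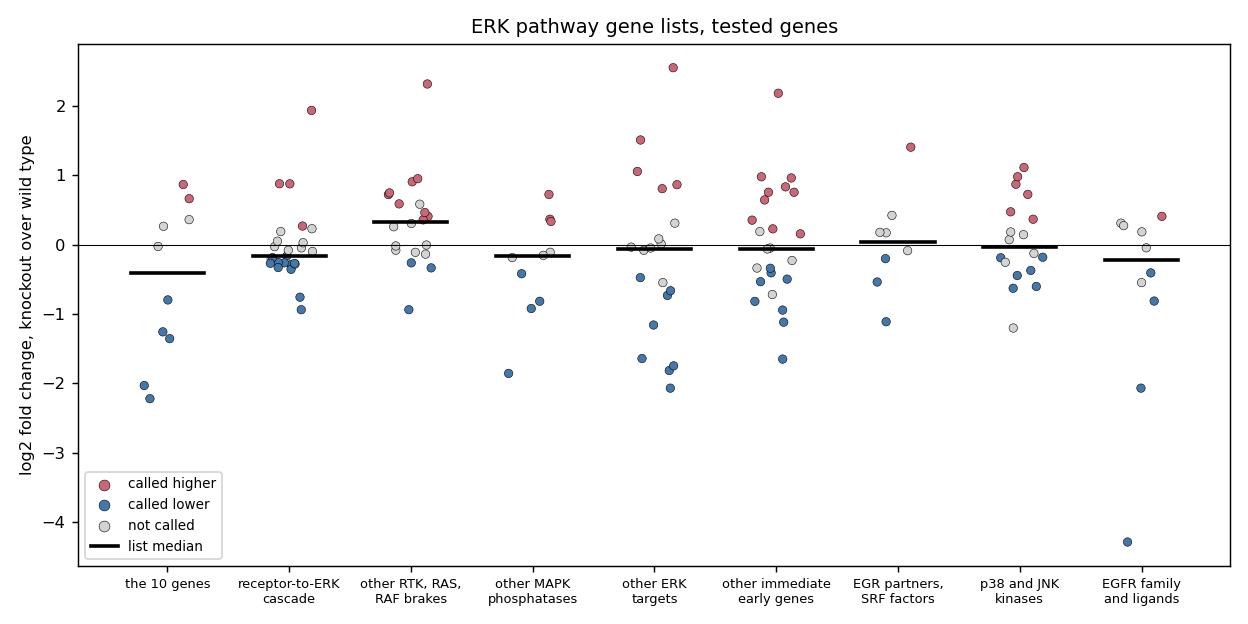
Log2 fold change, knockout over wild type, of every tested gene in 9 groups, with the group median as a black line. Red points were called higher, blue points lower and grey points not called by edgeR at an adjusted p under 0.05. The 10 genes have a median of -0.41, and the other groups have medians from -0.23 (EGFR family) to 0.33 (other brakes), with calls in both directions in each.

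The deleted gene followed the labels, with Cebpb at 12036 to 18184 counts in wild type libraries against 78 to 109 where it was deleted. Totals ran from 107757415 to 122797031 counts in wild type libraries and from 81256192 to 92987497 in the others, so 3 counts were at most 0.0349 CPM. The genotypes also differed in the levels of marker transcripts. Keratinocyte markers were plentiful, with a summed level of 42317 to 47464 CPM in wild type and 25145 to 26186.5 CPM in knockout libraries, and 9 of 10 tested were called lower. Melanocyte markers summed to 700.5 to 786 and 609 to 691 CPM with 6 of 8 tested called lower. Fibroblast markers summed to 7.63 to 11.1 and 6.00 to 6.81 CPM with 2 of 7 tested called lower. Leukocyte markers summed to 49.1 to 59.9 and 28.2 to 31.5 CPM with 3 of 4 tested called lower. Most of the leukocyte sum was Cd68 (49.1 ± 4.35 and 27.2 ± 1.67 CPM, SD), and Ptprc held at most 5 counts in a library. Endothelial and mural markers summed to 76.4 to 79.3 and 221 to 227 CPM with 2 of 5 tested called higher and 1 lower. Most of that sum was Mcam (70.5 ± 1.88 and 217 ± 4.08 CPM, SD). The other gene called higher, Rgs5, held at most 35 counts in a library. Kdr was called lower (6.36 ± 0.312 and 4.77 ± 0.475 CPM, SD), and 2 were not called. Lum, Cd3e and Cdh5 were at 0 in all libraries. Y-linked transcripts summed to 60.7 to 68.1 CPM in the wild type libraries, against 0.101 to 0.158 CPM where Cebpb was deleted. Xist, a transcript of the inactive X chromosome of female cells, was high in both genotypes, at 387 to 415 and 567 to 604 CPM. Every wild type library held both male and female transcripts, while knockout libraries were almost without the Y-linked ones. Sex composition can therefore not be separated from genotype here. Mitochondrial genes took 1.47% to 1.64% and 1.79% to 2.17% of counts. These differences run with genotype beside every gene given here, and their part in the results was not tested. In bulk RNA, fewer cells of a type and less RNA per cell cannot be told apart.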

How the data were processed

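Paired reads of 150 bp from 6 libraries were counted per gene. The deposited values are raw counts in 1 table. FastQC, STAR, HTSeq and DESeq2 and the builds mm39 and GRCm39 are named in the submitters' processing notes. Their versions, the gene annotation and the strand setting are not stated there.

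The deposited counts were tested with edgeR 4.0.16 (robust quasi-likelihood, R 4.3.3, limma 3.58.1), with genotype as the only factor, filterByExpr at 10 counts, TMM scaling and Benjamini-Hochberg adjustment over all 17659 genes tested. The script was tested on simulated data. SEs are the fold change divided by the root of F, and CPM are TMM-scaled. Log2 values per library used an added count of 0.5. Symbols were matched for 52083 identifiers. Alternatives were DESeq2 size factors, library totals, 2 other low-count filters, DESeq2 1.42.0, limma voom and leaving out each library.

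The members and the lists were chosen with earlier results of these data known. Of 196 list entries, 195 were matched (Spry3 was not), and Hbegf, Areg and Ereg stand in both the ERK target and the EGFR list. Named were the 10 members, the 3 called genes of smallest p in each of 8 pathway lists, 19 genes fixed by name, and the 3 genes most like each member. Ergic1, AC137853.2, Mcam, Rgs5, Kdr, Cd68, Ptprc, Xist, Spred3, Dusp3, Dusp8 and Dusp19 were named after their values were seen. Some of what this rule takes is not reported here.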

Additional observations from a re-analysis of the deposited data

How the results depend on the processing

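No paired analysis was possible because the library numbers (1 to 3 and 4 to 6) are not shared between genotypes. Over the 12 alternatives, the log2 fold changes of the 10 genes gave 107 values with the same direction and call, 6 newly called, 5 no longer called and 1 of the other sign. Library totals gave 2452 genes lower in all, 4 of the 10 genes higher, and Spry1 at 0.17, Dusp6 at 0.56 and Spry2 at 0.47. They also gave 8 cascade genes higher and 3 lower, 1 other brake lower, 3 EGR partners higher, 3 p38 and JNK genes lower and 3 EGFR family genes higher. Mapk3 (0.013), Dusp2 (0.012), Dusp7 (0.090) and Phlda1 (0.12) then changed sign. Library totals move the median of all genes to 0.21. With no low-count filter Dusp6 was called at 0.36 and 2 EGR partners were higher. With a mean of at least 1 CPM, which leaves Spry4 untested, 1 of the 10 was higher and 2 EGR partners were. With DESeq2's test 1 of the 10 was higher, Spry4 was not called (0.86), and 2 EGR partners were higher. With limma voom Dusp6 was called (0.38). The cause of the last 3 changes was not tested.

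Leaving out 1 library at a time gave 1 to 4 of the 10 genes higher and 5 lower throughout. Values ranged from 0.22 to 0.60 for Dusp6, from 0.18 to 0.40 for Spry2, from 0.77 to 1.05 for Spry4, from -0.45 to 0.18 for Dusp2, from -0.17 to 0.068 for Phlda1 and from -0.12 to 0.19 for Epha2. It gave 6 to 11 other immediate early genes, 1 to 2 EGR partners and 1 to 2 EGFR family genes higher. With a library left out, the arm of 2 takes its spread from the pooled fit. Spry4 held 34 to 76 counts in a library, the fewest of the 10 genes.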
